A study of Homo sapiens with 4 samples.

Results

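BCL2 family proteins and inhibitor of apoptosis proteins (IAPs) decide whether a stressed cell lives or dies, and 10 of their genes are described here in LoVo cells with and without the receptor MET. They are BCL2, BCL2L1, MCL1, BCL2L11, BAK1, BID, BMF, BIRC2, BIRC3 and XIAP. They were taken by their symbols in GENCODE version 29 from the 58825 gene rows of the count files, and all 10 were among the 13801 genes with enough counts to be tested. LoVo is an established line from a human colorectal adenocarcinoma whose MET receptor is active without its ligand. The 2 MET+ libraries are labelled as wild type and as a GFP control, and the other 2, MET-KO, are from this line after a CRISPR/Cas9 knockout of MET. In the study's methods, transfected cells were selected with puromycin, single clones were picked by hand, and knockout clones were chosen by the loss of the protein. Whether both MET-KO libraries come from 1 clone is not given in the sources used here, so p-values measure only the spread between these libraries.

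Proteins of the BCL2 family control the outer membrane of mitochondria. BCL2, BCL-XL (BCL2L1) and MCL1 keep it closed, BAK and BAX open it, and the BH3-only proteins, among them BIM (BCL2L11), BID and BMF, bind the survival proteins or the pore formers and tip the balance. Once the membrane opens, cytochrome c starts the caspases. XIAP blocks caspases directly, whereas cIAP1 (BIRC2) and cIAP2 (BIRC3) are ubiquitin ligases of the tumor necrosis factor receptor complex that promote NF-kB signaling from that receptor and restrain the non-canonical NF-kB pathway.

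QuantSeq libraries read the 3' end of messenger RNAs, so each transcript gives about 1 tag whatever its length, and levels are given as CPM, counts scaled to a common library size after TMM adjustment. Library totals ranged from 8429142 to 10286552 counts, and a gene at 0 could have had up to 3 counts, which is 0.276 to 0.362 CPM. MET itself fell from 337 and 335 CPM in MET+ to 84.3 and 88.7 CPM in MET-KO cells, a log2 fold change of -1.96 (SE 0.09, edgeR adjusted p = 1.49e-18). The 10 colorectal epithelium markers summed to 8013 to 8061 CPM in MET+ and 6084 to 6852 CPM in MET-KO cells, with CDX1 at 0 in every library, KRT20 at 0 in both MET+ libraries and CDH17 at 0 in both MET-KO libraries. Most of these sums came from KRT18 and KRT8, at 6010 and 1343 CPM on average in MET+ and 4870 and 1181 CPM in MET-KO cells. On average EPCAM fell from 437 to 203 CPM and CDH1 from 142 to 77.3 CPM, whereas CDX2 rose from 64.9 to 134 CPM. VIL1 fell from 5.57 to 0.285 CPM and LGALS4 from 10.85 to 0.0949 CPM, with at most 3 counts in a MET-KO library. Fibroblast markers summed to at most 4.32 CPM and endothelium markers to at most 0.922 CPM. Leukocyte markers summed to 6.15 and 9.73 CPM in MET+ and 0.881 and 1.10 CPM in MET-KO cells, with PTPRC and CD3E at 0 throughout. The 9 genes of a list from the Y chromosome summed to 0 counts in both MET+ libraries and to 6773 and 6756 counts in the knockouts, although the labels give both groups as LoVo. The groups therefore differed in more than MET, and the part of that difference in the results was not tested. In bulk RNA, fewer cells with a transcript and less of it per cell cannot be told apart.

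Among the 10 genes, BIRC3 had the largest difference and BCL2 the largest decrease. Of the 10 genes, 4 were called higher in MET-KO cells (BIRC3, BIRC2, BMF and BID) and 4 lower (BCL2, BAK1, XIAP and BCL2L1) at an adjusted p under 0.05 in the quasi-likelihood test of edgeR, with adjustment by Benjamini and Hochberg. Over all 13801 genes tested, 54.1% were called, 27.2% higher and 26.9% lower. With a change of at least 2-fold required as well, 3 of the 10 genes were higher (BIRC3, BIRC2 and BMF), against 14.5% of all genes, and 1 was lower (BCL2), against 9.81%. The 2 libraries of each group did not overlap for 8 of the 10 genes, against 75.6% of all genes. MCL1 and BCL2L11 were the 2 genes that were not called, and their groups overlapped. The median log2 fold change was -0.03 over the 10 genes and 0.01 over all genes tested. Scaling by library totals alone moved the latter to 0.11.

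**Figure D1:**
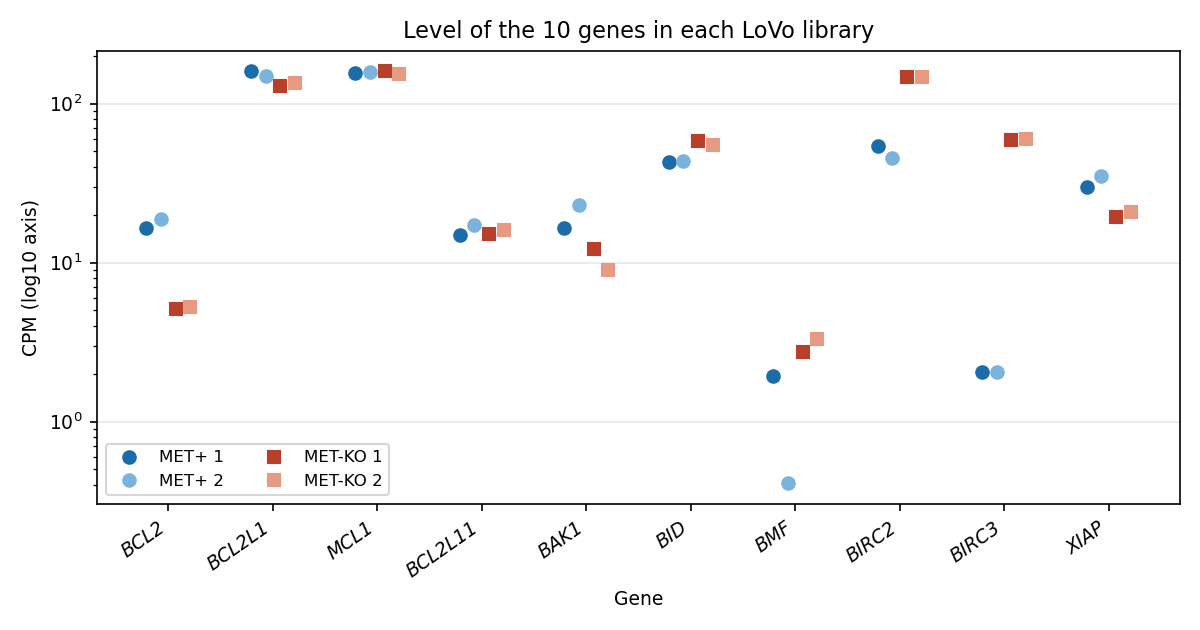
Level of each of the 10 genes in CPM on a log10 axis, with 1 point for each library (circles, MET+; squares, MET-KO). BIRC3 stood at 2.05 CPM in both MET+ libraries and at 59.0 and 60.1 CPM after the knockout, and the points of MCL1 and BCL2L11 overlapped between the groups.

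**Figure D2:**
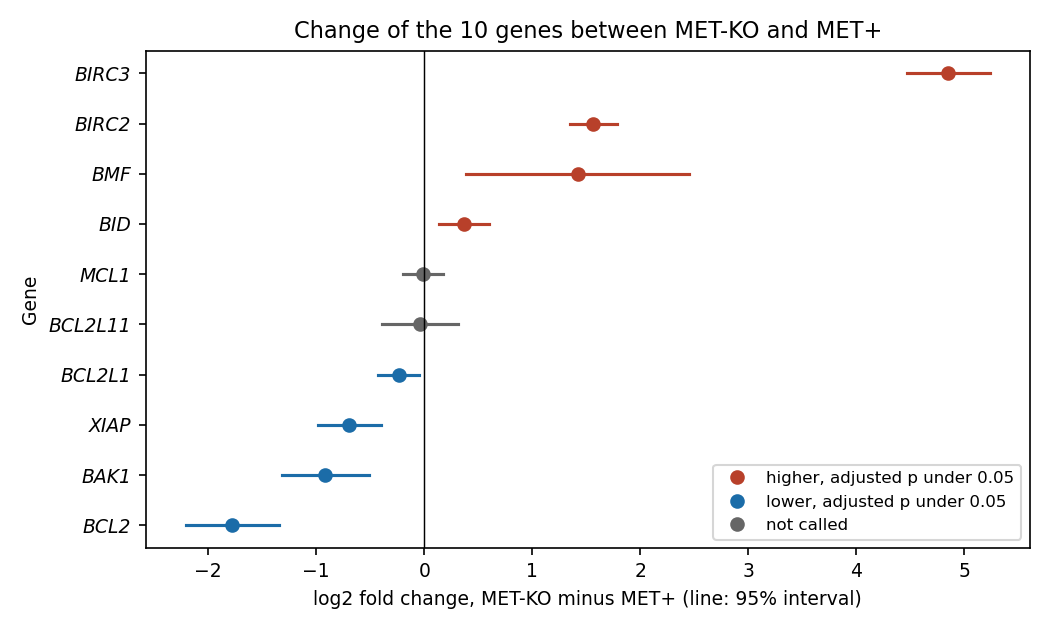
Log2 fold change of MET-KO over MET+ cells for the 10 genes, in order of size, with the 95% interval of edgeR's fit as a line. The values ran from -1.78 for BCL2 to 4.85 for BIRC3, and the intervals of MCL1 and BCL2L11 spanned 0.

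The increases with the highest fold changes were in BIRC3 and BIRC2, which lie side by side on chromosome 11. The bases just before both genes are shown because these 2 neighbors rose together and their starts are separate. They are from RefSeq on GRCh38.p14, read on the plus strand and cut at the first base of the GENCODE gene. The stretch before BIRC3 is 216 bases long, chr11:102317234-102317449, and that before BIRC2 is 247 bases long, chr11:102346964-102347210. Capitals mark matches to the degenerate form of the NF-kB consensus.
BIRC3: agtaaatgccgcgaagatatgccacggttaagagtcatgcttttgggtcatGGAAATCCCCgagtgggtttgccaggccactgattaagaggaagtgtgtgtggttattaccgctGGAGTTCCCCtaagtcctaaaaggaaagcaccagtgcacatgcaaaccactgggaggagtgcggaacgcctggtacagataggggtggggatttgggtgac
BIRC2: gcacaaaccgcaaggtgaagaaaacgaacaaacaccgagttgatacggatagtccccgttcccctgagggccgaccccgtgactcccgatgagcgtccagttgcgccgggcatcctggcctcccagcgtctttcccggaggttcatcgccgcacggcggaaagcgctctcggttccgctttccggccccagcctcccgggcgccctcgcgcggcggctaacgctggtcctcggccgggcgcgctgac
The BIRC3 stretch was 51.9% G and C, and the BIRC2 stretch 67.6%. A set of 4 motifs was searched on both strands in windows from 250 bases before to 50 bases after each RefSeq start, of which 9 of the 10 genes had at least 1 (18 windows in all). GGAATG, bound by the TEAD partners of YAP, was in 14.0% of all 35116 windows, TGANTCA, the AP-1 site, in 7.71%, GTAAACA, the FOXO site, in 3.42%, and GGGANTTTC, a narrow NF-kB site, in 1.28%. Among the windows of the 9 genes, the FOXO letters in BCL2L11, 223 bases before the start, were the only match. The degenerate NF-kB consensus, which was added after the BIRC3 window had been seen, was in 11.3% of all windows. It matched the BIRC3 window at -199 and -135 and a BMF window at -20, and neither BIRC2 window. A match shows only that these letters are there.

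BIRC3 (ENSG00000023445, chromosome 11, 102317450 to 102339403) was read 17 and 20 times in MET+ cells and 603 and 654 times in MET-KO cells. That is 2.05 ± 0.00104 CPM against 59.6 ± 0.776 CPM (SD, n = 2 each), a 29.1-fold increase. Its log2 fold change was 4.85 (SE 0.19, 95% interval 4.47 to 5.24, edgeR adjusted p = 3.17e-21), and it stood at percentile 97.7 of all genes tested. The level in MET+ cells rests on few counts.

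BIRC2 (ENSG00000110330, chromosome 11, 102347211 to 102378670) rose from 54.2 and 45.3 CPM in MET+ cells to 148 and 146 CPM in MET-KO cells. The means were 49.7 ± 6.28 and 147 ± 1.16 CPM (SD, n = 2 each), a 2.96-fold increase. The log2 fold change of BIRC2 was 1.57 (SE 0.11, 95% interval 1.35 to 1.78, edgeR adjusted p = 1.28e-14). BIRC3 thereby went from a trace beside BIRC2 to a sizeable fraction of it. The BIRC3 to BIRC2 ratio was 0.0379 and 0.0452 in MET+ cells against 0.399 and 0.411 in MET-KO cells.

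XIAP (ENSG00000101966, chromosome X, 123859724 to 123913979) fell, from 29.9 and 34.8 CPM to 19.3 and 20.8 CPM. Both MET-KO libraries lay below both MET+ libraries, and the log2 fold change was -0.69 (SE 0.14, edgeR adjusted p = 0.000112). XIAP and BAK1 have processed pseudogenes elsewhere in the genome, and how reads shared with these were counted is not given in the sources used here. The XIAP to BIRC2 ratio was 0.552 and 0.769 in MET+ and 0.130 and 0.142 in MET-KO cells. Ratios were formed for 6 pairs of genes, and with 2 against 2 libraries a two-sided exact permutation test cannot go below p = 0.333 (0.400 after adjustment over the 6 pairs), the value that both of these ratios reached.

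The IAP list held 7 genes, of which 5 were tested, with a median log2 fold change of 0.17. Of these 5, 2 were higher and 2 lower, against 27.2% and 26.9% of all genes tested. Survivin (BIRC5), a mitotic protein made by dividing cells, fell by 0.56 on the log2 scale (SE 0.10, edgeR adjusted p = 1.73e-05). BIRC6, a very large ubiquitin ligase, went from 24.3 to 27.4 CPM and was not called, and BIRC7 and NAIP had 0 counts in every library. Summed over the list, IAP transcripts came to 211 and 201 CPM in MET+ and to 318 and 323 CPM in MET-KO cells. The make-up of this sum also differed. BIRC5 was 47.9% and 47.0% of IAP counts in MET+ cells and 21.0% and 20.5% in MET-KO cells, where BIRC2 was 46.5% and 45.2%, up from 25.6% and 22.5%. The share of BIRC3 was 0.970% and 1.02% in MET+ and 18.6% in both MET-KO libraries.

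**Figure D3:**
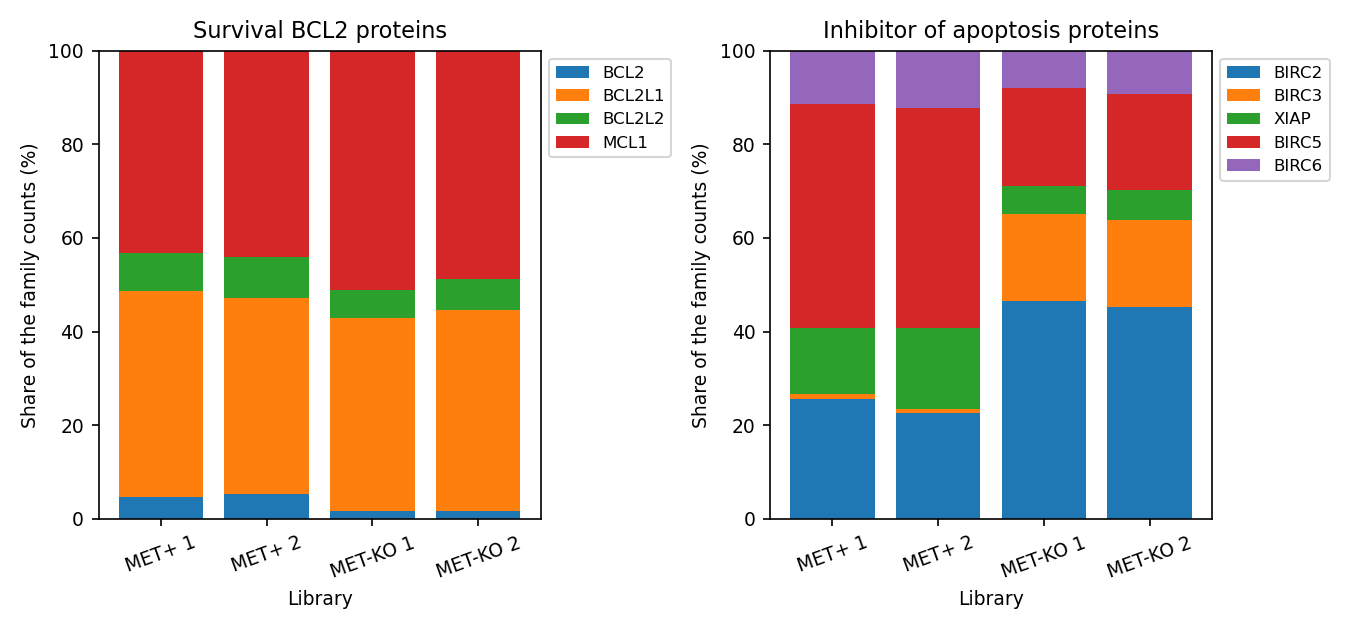
Share of each gene, in percent, of the summed counts of survival BCL2 genes (left) and of IAP genes (right) in each library. Genes with at most 0.5% in every library are left out, so that bars can end just under 100%. In the right panel BIRC3 widened from about 1% in MET+ to 18.6% in MET-KO cells, and in the left panel BCL2 narrowed.

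IAP antagonists displace IAPs from caspases or destabilize them. Of 4 genes, 3 were tested, too few to describe the list, and 1 was higher, against 27.2% of all genes tested. The higher gene was XAF1, an XIAP-binding protein that is named after its value was seen. It had 1 and 3 counts in MET+ and 16 and 12 in MET-KO cells, a ratio of 5.99 with an exact 95% counting interval of 2.10 to 23.5. HTRA2, a mitochondrial protease, had a log2 fold change of -0.26 (edgeR adjusted p = 0.108). DIABLO, which shares its position with a second gene identifier, was listed at 0 to 2 counts and not tested.

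BIRC3 and BIRC2 were not alone in their part of chromosome 11. BIRC3 ends 7.81 kb before BIRC2 begins, and YAP1, which encodes the transcriptional coactivator YAP, ends 84.0 kb before BIRC3. Of 44 genes annotated within 1 Mb of BIRC2, 28 had no count in any library, 10 were tested and 9 had a count in every library. YAP1 rose from 40.9 and 36.2 CPM to 70.2 and 71.7 CPM, a log2 fold change of 0.88 (SE 0.11, edgeR adjusted p = 4.03e-08). TMEM123, which begins 123 kb from the start of BIRC2 on the other strand, rose by a log2 fold change of 0.91, DYNC2H1, a cilium motor gene, by 1.79, CEP126, a centrosome gene, by 3.01 and the noncoding AP001527.2 by 1.53 (edgeR adjusted p at most 0.0331). DCUN1D5 lay the other way, from 58.6 and 55.2 to 47.9 and 47.7 CPM, and was not called (edgeR adjusted p = 0.0545). MMP13, at 1 or 2 counts in each library, was too low to be tested. CFAP300, a cilium assembly gene that lacked a count in MET+ cells and is named after its values were seen, had 0 and 0 counts there and 49 and 67 in MET-KO cells, at least 16.4-fold higher against 3 counts per library.

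Medians were higher close to BIRC2 than across the chromosome. The median log2 fold change was 1.53 over the 11 other tested genes within 2 Mb of BIRC2, 0.88 over 17 within 5 Mb, 0.19 over 73 within 10 Mb, and 0.04 over the 759 tested genes of chromosome 11. Of these 11 genes, 5 had a higher value than BIRC2, and of the 11 others within 2 Mb of BIRC3, 1 had a higher value than BIRC3. That gene was CFAP300, whose fitted log2 fold change of 8.75 rests on 0 counts in both MET+ libraries. Its lower bound of 16.4-fold is below the 29.1-fold increase of BIRC3. The part of the shared region in the rise of BIRC2 and BIRC3 was not tested.

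**Figure D4:**
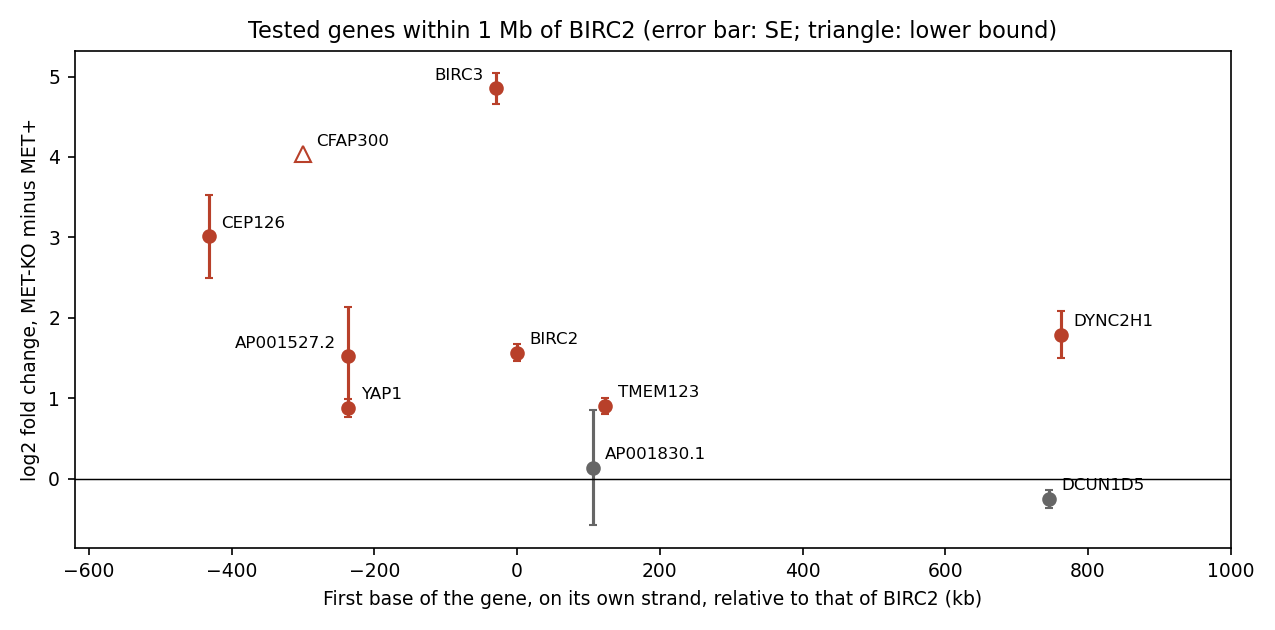
Log2 fold change of MET-KO over MET+ cells for the 10 tested genes within 1 Mb of BIRC2, against the distance in kb of the first base of each gene, on its own strand, from that of BIRC2 (error bars, SE; triangle, lower bound for CFAP300, which had 0 counts in MET+ cells). Of the 10 genes, 8 were called higher, BIRC2 and BIRC3 among them, against 27.2% of all genes tested. AP001830.1 and DCUN1D5 were not called.

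BCL2, which gives the family its name, was the survival gene with the clearest decrease. BCL2 (ENSG00000171791, chromosome 18, 63123346 to 63320128, minus strand) had 137 and 184 counts in MET+ and 52 and 57 in MET-KO cells. Its level fell from 17.7 ± 1.65 to 5.16 ± 0.106 CPM (SD, n = 2 each), 3.43-fold. The log2 fold change was -1.78 (SE 0.21, 95% interval -2.21 to -1.35, edgeR adjusted p = 9.83e-09). Of the 218 tested genes of chromosome 18, 5.96% had a lower value.

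BCL2L1 (ENSG00000171552, chromosome 20, 31664452 to 31723989, minus strand) encodes BCL-XL from its long splice form and a shorter, death-promoting form that 3' counts do not tell apart. It had 159 and 150 CPM in MET+ and 128 and 134 CPM in MET-KO cells. The groups did not overlap, and the log2 fold change was -0.24 (SE 0.09, 95% interval -0.43 to -0.05, edgeR adjusted p = 0.0326). This call was the least secure of the 4 decreases. It was lost in 8 of 11 alternative settings, with adjusted p up to 0.242 in the setting without TMM scaling, and those 8 included leaving out MET+ replicate 1 (log2 fold change -0.19, adjusted p = 0.217), MET+ replicate 2 (-0.29, 0.0605) or MET-KO replicate 1 (-0.21, 0.120) in edgeR.

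MCL1 (ENSG00000143384, chromosome 1, 150574551 to 150579738, minus strand), whose protein is short-lived, was at 157 and 158 CPM in MET+ and 159 and 152 CPM in MET-KO cells. The MET-KO values lay on either side of the MET+ values. Its log2 fold change was -0.01 (SE 0.09, edgeR adjusted p = 0.928), with a 95% interval of -0.20 to 0.18. MCL1 and BCL2L1 had similar levels in MET+ cells, with MCL1 to BCL2L1 ratios of 0.983 and 1.05. In MET-KO cells the ratios were 1.24 and 1.14.

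Of 6 survival genes, 4 were tested and 3 were lower, against 26.9% of all genes tested, and the median log2 fold change was -0.43. BCL2L2, which encodes BCL-W, fell by 0.63 on the log2 scale (SE 0.14, edgeR adjusted p = 0.000419). BCL2A1 and BCL2L10 had at most 3 counts in any library. Survival transcripts summed to 361 and 358 CPM in MET+ and 312 CPM in both MET-KO libraries. BCL2 made up 4.57% and 5.26% of those counts in MET+ and 1.63% and 1.68% in MET-KO cells, and MCL1 43.3% and 44.1% against 51.1% and 48.8%.

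Among the pore formers, BAK1 was lower in MET-KO cells and BAX was not called. BAK1 (ENSG00000030110, chromosome 6, 33572547 to 33580293, minus strand) had 16.4 and 23.2 CPM in MET+ and 12.2 and 8.92 CPM in MET-KO cells. The groups did not overlap, although both pairs were uneven, and the log2 fold change was -0.91 (SE 0.20, edgeR adjusted p = 0.000179). It ranged from -1.16 to -0.64 when each library was left out in turn and stayed called. BAX averaged 12.3 ± 0.539 CPM with MET and 13.4 ± 0.862 CPM without it (SD, n = 2 each), with a log2 fold change of 0.12 (SE 0.19, edgeR adjusted p = 0.630). Of the 3 pore formers, all were tested and only BAK1 was called, whereas 54.1% of all genes tested were called. BOK, at 22.0 and 19.6 CPM on average, was not called either (edgeR adjusted p = 0.401). The BAK1 to MCL1 ratio, between a pore former and one of the proteins that hold it, was 0.105 and 0.147 in MET+ and 0.0767 and 0.0585 in MET-KO cells.

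The BH3-only genes moved in both directions. All 8 were tested, 4 were higher and 2 lower, and their median log2 fold change was 0.25. The background over all genes tested was 27.2% higher and 26.9% lower. BID (ENSG00000015475, chromosome 22, 17734138 to 17774770, minus strand), which caspase-8 cleaves to carry the death receptor signal to mitochondria, had 43.2 and 43.8 CPM in MET+ and 57.8 and 54.6 CPM in MET-KO cells. Both MET-KO libraries were above both MET+ libraries, and the log2 fold change was 0.37 (SE 0.11, edgeR adjusted p = 0.00602). Without MET-KO replicate 1 it was 0.33 and no longer called (edgeR adjusted p = 0.0555).

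BMF (ENSG00000104081, chromosome 15, 40087890 to 40108892, minus strand), a BH3-only protein tied to the cytoskeleton and to loss of attachment, had 16 and 4 counts in MET+ and 28 and 36 in MET-KO cells. In CPM these are 1.93 and 0.410 against 2.74 and 3.31. The MET+ libraries differed more from each other than the higher of them did from the MET-KO libraries. The log2 fold change of BMF was 1.42 (SE 0.51, 95% interval 0.39 to 2.45, edgeR adjusted p = 0.0179), but it rested on single libraries: it was 0.64 without MET+ replicate 2 (edgeR adjusted p = 0.313), 2.85 without MET+ replicate 1 (0.000308), 1.53 without MET-KO replicate 1 (0.0527) and 1.27 without MET-KO replicate 2 (0.145). DESeq2's Wald test did not call it (adjusted p = 0.105).

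BCL2L11 (ENSG00000153094, chromosome 2, 111119378 to 111168447), which encodes BIM, was at 15.0 and 17.1 CPM in MET+ and 15.2 and 16.1 CPM in MET-KO cells. The MET-KO values lay between the MET+ values. Its log2 fold change was -0.04 (SE 0.17, edgeR adjusted p = 0.866), and the 95% interval of -0.39 to 0.31 is wider than that of MCL1. Exons of BCL2L11 overlap those of MIR4435-2HG on the other strand, which had 54 and 62 counts in MET+ and 142 and 166 in MET-KO cells, and the strand setting of the counting is not given in the sources used here. BCL2L11 had 7.75 and 41.8 times the counts of BMF in MET+ cells and 5.54 and 4.86 times in MET-KO cells. The BCL2L11 to MCL1 ratio was 0.0955 and 0.108 in MET+ and 0.0952 and 0.106 in MET-KO cells, and the groups overlapped.

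Among the other genes of the BH3-only list, 2 rose and 2 fell. BIK rose from 3.62 and 2.56 CPM to 20.6 and 22.2 CPM, a log2 fold change of 2.80 (SE 0.23, edgeR adjusted p = 2.14e-12). BBC3, which encodes the p53 target PUMA, was the most abundant gene of the list. BBC3 rose from 205 and 180 CPM to 312 and 339 CPM, a log2 fold change of 0.76 (SE 0.09, edgeR adjusted p = 2.16e-08). Its share of BH3-only counts was 59.4% and 55.8% in MET+ and 69.2% and 71.7% in MET-KO cells. HRK fell from 26.8 and 22.6 CPM to 5.58 and 5.79 CPM, a log2 fold change of -2.11 (SE 0.19, edgeR adjusted p = 3.17e-11). PMAIP1, which encodes the MCL1-binding protein NOXA, fell by 0.98 on the log2 scale (SE 0.14, edgeR adjusted p = 4.68e-07). Summed over the list, BH3-only transcripts came to 345 and 323 CPM in MET+ and 451 and 473 CPM in MET-KO cells.

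Around these genes, 44 others of the apoptosis machinery were followed, of which 39 were tested, 11 (28.2% of those tested) were higher and 9 (23.1%) lower, with a median log2 fold change of 0.12. These shares are near the background of 27.2% higher and 26.9% lower. Of 6 further BCL2-related genes, 2 were higher and 3 lower. BNIP3L, a mitophagy receptor, rose by a log2 fold change of 1.43 and BCL2L13 by 0.48, the latter not called without MET+ replicate 2 (log2 fold change 0.29, edgeR adjusted p = 0.107). BCL2L15 had 88 and 122 counts in MET+ and 2 in each MET-KO library, a ratio of 61.4 with an exact 95% counting interval of 23.6 to 227. BCL2L14 fell by 2.90 on the log2 scale, and BCL2L12, named after its value was seen, fell by 0.52.

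Caspases and the apoptosome, the complex of APAF1 and cytochrome c, were mostly not called. Of 9 genes, all tested, 2 were higher and 7 were not called, whereas 54.1% of all genes tested were called. CASP10, an initiator caspase of death receptors, rose from 3.62 to 11.9 CPM on average, a log2 fold change of 1.71 (SE 0.25, edgeR adjusted p = 7.26e-07). CASP8 and CASP9 had log2 fold changes of 0.17 and -0.06 and were not called.

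The death receptor complex, in which cIAP1 and cIAP2 act, held changes in both directions. Of 11 genes, all tested, 4 were higher and 2 lower, against 27.2% and 26.9% of all genes tested. FAS, a death receptor, rose from 18.6 to 54.3 CPM on average, a log2 fold change of 1.55 (SE 0.13, edgeR adjusted p = 5.60e-12). CFLAR, whose product FLIP holds back caspase-8, rose by 0.95 on the same scale. TNFRSF1A, the main receptor for tumor necrosis factor, fell from 106 to 24.5 CPM on average, a log2 fold change of -2.11 (SE 0.12, edgeR adjusted p = 6.03e-17), and RIPK1, a target of cIAP1, fell by 0.53. The other 2 that were higher, named after their values were seen, were TRAF1, with 1 and 2 counts in MET+ and 20 and 24 in MET-KO cells, a ratio of 12.5 with an exact 95% counting interval of 4.02 to 63.2, and TRAF3, with a log2 fold change of 0.55. TRAF3 joins the cIAPs in the complex that degrades the kinase of the non-canonical NF-kB pathway.

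**Figure D5:**
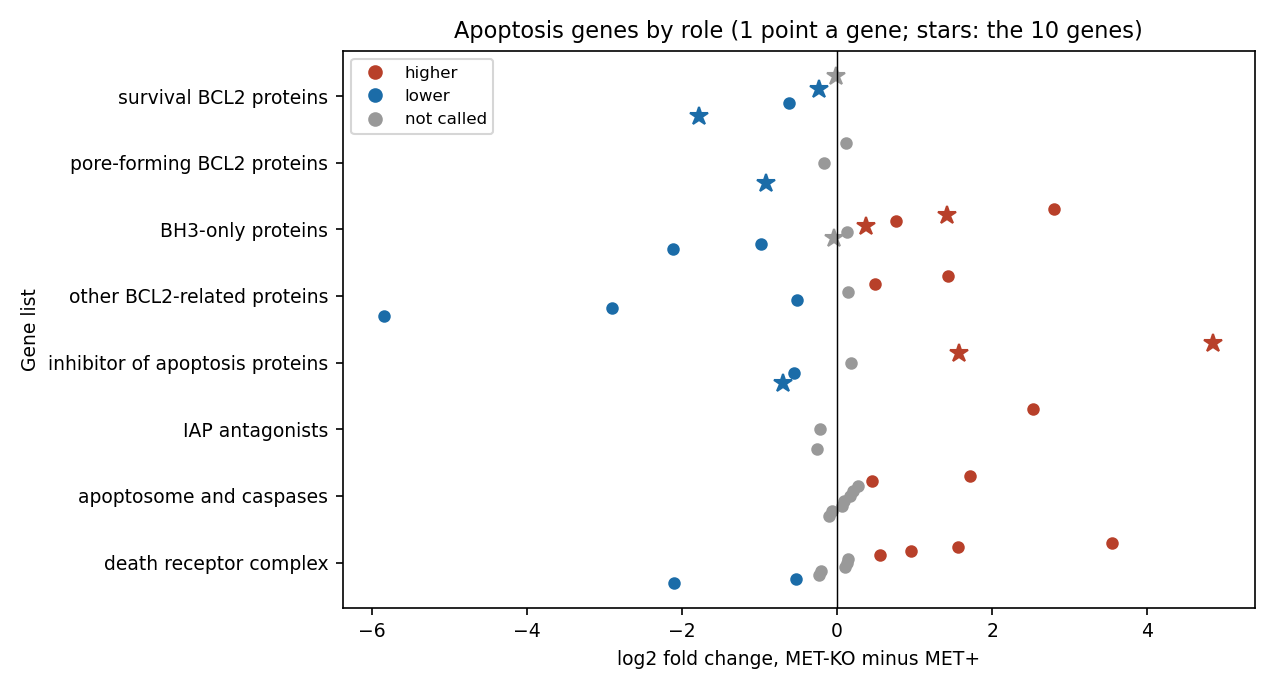
Log2 fold change of MET-KO over MET+ cells for the 49 tested genes of 8 lists of the apoptosis machinery, with 1 point for each gene (stars, the 10 genes; colors, call in edgeR). The survival BCL2 genes, of which only 4 were tested, ran from -1.78 for BCL2 to -0.01 for MCL1, whereas the BH3-only, IAP and death receptor lists spread to both sides. BCL2L15, at -5.84, is a fitted value on 2 counts in each MET-KO library.

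Chromosome medians were small beside the changes of BIRC3, BIRC2, BCL2, BAK1 and XIAP. The median of the chromosome lay between -0.01 and 0.09 for 9 of the 10 genes. For BMF, on chromosome 15, it was -0.43, and BMF stood at percentile 92.3 of its 467 tested genes. BAK1 was at percentile 9.47 of chromosome 6 and XIAP at percentile 12.0 of chromosome X. Neighbors of BCL2 also lay low, with a median log2 fold change of -0.48 over the 13 other tested genes within 2 Mb, -0.16 over 22 within 5 Mb and 0.04 over 40 within 10 Mb, and 10 of the 13 nearest had a higher value than BCL2. Within 2 Mb of the remaining genes outside chromosome 11, the medians were 0.16 for BAK1 (83 genes), 0.12 for XIAP (4), -0.17 for BCL2L1 (22), 0.01 for MCL1 (59), -0.18 for BID (31), -0.36 for BMF (53) and 0.30 for BCL2L11 (26). The part of these neighborhoods in the changes was not tested.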

How the data were processed

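QuantSeq 3' (FWD) libraries of 2 MET+ and 2 MET-KO LoVo cultures were used, grouped by their titles. The authors deposited 1 file for each library, with whole read counts for 58825 genes and 99 spike-ins, all at 0, without normalization. Per the labels, the submitters' processing notes name GRCh38, bcl2fastq, cutadapt 1.16, STAR 2.5.4a, featureCounts 1.6.2 and DESeq2 1.18.1. The annotation release and strand setting are not given in the sources used here. Names and positions came from GENCODE version 29 and promoters from RefSeq.

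Counts were tested in R 4.3.3 with edgeR 4.0.16 (filterByExpr, TMM, quasi-likelihood test, Benjamini-Hochberg adjustment over all tested genes, threshold 0.05) with the condition as the only term. SEs were derived from the F statistic. Counting intervals are exact (Clopper-Pearson) and cover counting error only. Alternatives were DESeq2 size factors, library totals alone, the Wald test of DESeq2 1.42.0, no filter, a minimum of 10 counts per library, the replicate block, thinning and leaving out each library. The code was tested on simulated data. Replicates differed by more than sampling noise (chi-square per degree of freedom 5.45 and 4.86).

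The members and gene lists were chosen with earlier results of these data known. Named genes were the 10 members, BAX, MET, genes near BIRC2 counted in every library, and up to 2 called genes in each direction from each list, by fold change, at a mean log2 CPM of 1 or more. Windows of 2 to 10 Mb around a gene compare the lowest coordinates of genes. MCL1 had no promoter entry. Some genes of the lists are not reported here by name. Figures used Python 3.11.15 with matplotlib 3.10.9.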

Additional observations from a re-analysis of the deposited data

How the results depend on the processing

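Calls of BCL2, BAK1, BIRC2, BIRC3 and XIAP kept their direction and stayed past the threshold in all 11 alternatives. Leaving out each library in turn, 2 to 4 of the 10 genes were called higher and 1 to 2 were called and at least 2-fold lower, with BAK1 as the second. MCL1, not called in any setting, had a log2 fold change of 0.026 with at least 10 counts in every library, 0.088 with library totals alone and 0.0053 after thinning, and -0.048 to 0.024 without 1 library. BCL2L11, also not called, had 0.063 with library totals alone and -0.13 to 0.056 without 1 library. The cause was not tested. BMF had too few counts for the filter of 10. Leaving out a library leaves 1 in its group, which is assumed to vary like the other group. Replicate numbers did not pair the libraries (r = -0.05 over 13801 genes between deviations of same-numbered libraries, with only 2 pairs). With the replicate block, 51.1% of genes were called, and 3 of the 10 genes were called lower, since BCL2L1 was lost (log2 fold change -0.24, edgeR adjusted p = 0.0808). Low counts limit BMF, XAF1, TRAF1 and BCL2L15, and BCL2A1, BCL2L10 and DIABLO could not be tested.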
